A study of Mus musculus with 6 samples.

Results

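A set of 31 genes of monocytes and macrophages was described in RNA of the infarcted mouse left ventricle, 31 of the 17556 genes in the deposited expression table. They were chosen by gene name. They comprise lineage genes, genes of resident cardiac macrophages, and genes of recruited and phagocytic cells. The others are *Nos2*, Fc receptors and signalling adaptors, pattern and scavenger receptors, and lysosomal or lipid handling genes. The set was built to contrast 5 resident genes (*Lyve1*, *Timd4*, *Folr2*, *Cd163* and *Mrc1*) with 4 recruited and phagocytic genes (*Plac8*, *Chil3*, *Trem2* and *Gpnmb*).

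Bulk RNAseq was performed on left ventricles of 3 Cre positive and 3 Cre negative mice. All 6 mice were siblings aged 6 to 10 weeks that carried floxed Yap and Wwtr1 alleles. In all 6, the left anterior descending artery was permanently ligated, a diet with tamoxifen citrate was started right after surgery, and the ventricle was taken 4 days post injury (dpi). Cre positive mice had a copy of MerCreMer, a tamoxifen-inducible Cre recombinase, at the endogenous periostin locus, and Cre negative mice had wildtype Periostin. Excision of both Yap alleles and of one Wwtr1 allele was therefore aimed at myofibroblasts, the periostin-expressing fibroblasts of the injured heart, and not at macrophages. The driver sits in the *Postn* gene itself, so that Cre and the changed *Postn* allele cannot be told apart, and there was no uninjured or untreated ventricle. The labels give each library a replicate number and do not say more about its origin, so that the p-values measure the spread between these 6 samples.

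The adult heart holds resident macrophages that renew locally, express the scavenger and lectin receptors of the resident list, and clear debris from the myocardium. After infarction, circulating monocytes enter the tissue in large numbers, differentiate into macrophages, engulf dying cardiomyocytes and load their lysosomes, while many resident cells in the infarct are lost. Genes such as *Trem2* and *Gpnmb* are known from phagocytic, lipid-loaded macrophages, and *Plac8* and *Chil3* from monocytes that have recently arrived.

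Total estimated counts lay between 13177888 and 14827579 per ventricle, at which a count of 0 allows up to 0.202 to 0.228 CPM (counts scaled to library size; 3 counts, counting error only). Of the genes in the table, 13817 passed the filter on low counts and were tested with edgeR's quasi-likelihood test and Benjamini-Hochberg adjustment. The targeted genes overlapped between the groups. *Yap1* had a normalized count (scaled to the mean library) of 1480 ± 64.3 (SD, n = 3) in Cre negative and 1509 ± 94.3 (SD, n = 3) in Cre positive ventricles, and *Wwtr1* had 1561 ± 85.5 and 1611 ± 50.9 (SD, n = 3 each). *Postn* had 21219 ± 7927 and 13469 ± 779 (SD, n = 3 each; log2 fold change −0.66, adjusted p = 0.714 from edgeR, and −0.94 with adjusted p = 0.0182 without Cre negative replicate 1). One library stood apart. The chi-square per gene between Cre negative replicate 1 and the other libraries was 44.3 to 68.4, against 8.08 to 17 for all pairs without it. It had the lowest summed TPM (transcript abundance scaled to length and a fixed total) of 6 panleukocyte markers (402 against 664 to 727) and of 8 fibroblast markers (4953 against 7571 to 8909). It had the highest summed TPM of 8 cardiomyocyte markers (59320 against 44440 to 49770) and of 11 neutrophil markers (491.5 against 59.9 to 181.7). Results are therefore given with and without this library, and the part of these cell types in any result was not tested.

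All 31 genes were expressed in all 6 ventricles and all 31 passed the filter, with *Timd4* having the lowest estimated count, 26 in a single ventricle. On the TPM scale, which allows genes to be compared per transcript length, lysosomal and lipid genes came at the top. Cathepsin B (*Ctsb*) had a mean of 2887 TPM, the lipid carrier *Apoe* 2860, cathepsin D (*Ctsd*) 2555 and the lysozyme *Lyz2* 2004. The Fc receptor gamma chain *Fcer1g* followed with 611, *Lgals3* with 487, *Ctss* with 471, *Tyrobp* with 439 and *Cd68* with 430. Among the contrast genes, *Gpnmb* (175 TPM) and *Trem2* (133 TPM) of phagocytic cells stood above *Plac8* (75.2) and *Chil3* (39.1). The resident genes ranged from *Folr2* (64.6 TPM) through *Mrc1*, *Lyve1* (21.1) and *Cd163* (9.03) to *Timd4* (2.46), the lowest of all 31. Cathepsins, *Apoe* and *Lgals3* are made by many cell types of the heart, and in RNA of a whole ventricle fewer cells of a type and less RNA per cell cannot be told apart.

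**Figure D1:**
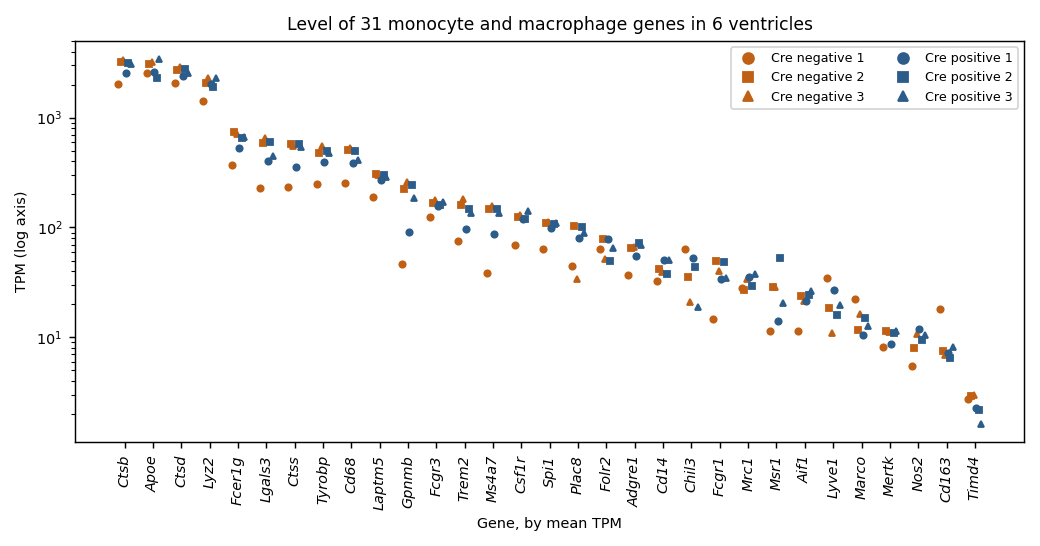
Level of each of the 31 genes (TPM, log axis) in the 6 ventricles, ordered by mean TPM; orange points are Cre negative and blue points Cre positive ventricles, with the marker shape giving the replicate. Means run from 2887 TPM for *Ctsb* to 2.46 TPM for *Timd4*, and Cre negative replicate 1 (orange circles) is the lowest point for 22 of the 31 genes on this scale, as it is for 51.4% of all genes tested.

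No member passed the test of Cre positive against Cre negative ventricles. None of 31 had an adjusted p under 0.05 with edgeR (0.00724% of all genes tested, a single gene, did), and DESeq2 and limma called none either. None had an unadjusted p under 0.05, against 5.83% of all genes. In normalized counts no member had groups that did not overlap, while 7.55% of all genes were higher and 6.85% lower in all Cre positive ventricles than in any Cre negative one. In TPM 1 member, *Timd4*, was lower in all Cre positive ventricles (2.44% of all genes were) and 0 were higher (15%). Of the log2 fold changes of Cre positive over Cre negative, 13 were above 0 and 18 below, with a median of −0.05 beside 0.006 for all genes, and on the TPM scale 12 of the 18 moved above 0. They ran from −0.70 (*Cd163*) to 0.44 (*Plac8*), and 28 of 31 were closer to 0 than 0.3. With limma on log2(TPM + 1), 23 of 31 were, and the other 8 were *Cd163* at −0.40, *Marco* at −0.33, *Timd4* at −0.37, *Plac8* at 0.72, *Nos2* at 0.40, *Aif1* at 0.38, *Ms4a7* at 0.305 and *Fcgr1* at 0.315. In the edgeR fit all 31 of the 95% confidence intervals held 0, and 7 of them reached past a 2-fold difference in at least one direction. The smallest p was 0.0864, for the scavenger receptor *Marco*, with an adjusted p of 0.714, and adjusted p-values went up to 0.997. Standard errors on the log2 scale lay between 0.11 (*Fcgr3*) and 0.56 (*Gpnmb*), with 95% intervals of −0.31 to 0.21 and −1.43 to 1.16.

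**Figure D2:**
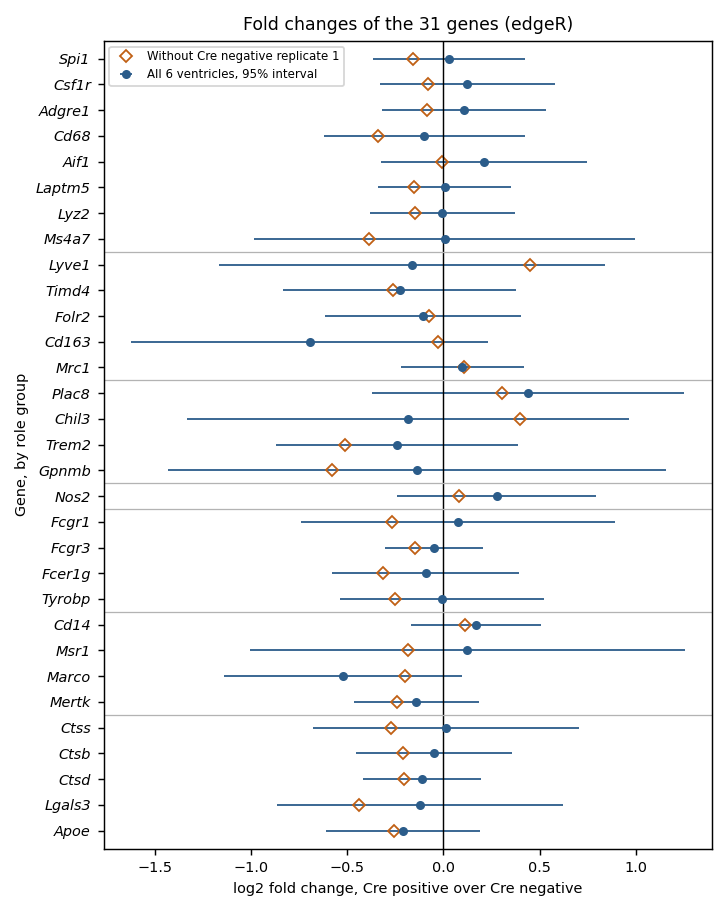
Log2 fold change of Cre positive over Cre negative for each gene, by role group: filled circles with 95% confidence intervals are from all 6 ventricles, open diamonds from the fit without Cre negative replicate 1. All 31 intervals cross 0, and 25 diamonds lie below 0 against 18 circles.

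The 8 lineage genes mark the monocyte and macrophage compartment as a whole, and none of them passed the test. *Spi1*, which encodes the transcription factor PU.1 that directs myeloid fate, had 764, 1200 and 1202 normalized counts in Cre negative replicates 1 to 3 and 1058, 1050 and 1126 in Cre positive replicates 1 to 3. *Csf1r*, the receptor for the growth factor that keeps macrophages alive, had 2202, 3575 and 3706 without Cre and 3390, 3147 and 3808 with Cre. *Adgre1*, the gene of the F4/80 antigen, had 997, 1558 and 1598 against 1310, 1612 and 1550. In each of the 3 genes the lowest value was that of Cre negative replicate 1 and the other 5 ventricles lay close together. The log2 fold changes were 0.03 ± 0.17 (SE) for *Spi1*, 0.13 ± 0.20 for *Csf1r* and 0.11 ± 0.18 for *Adgre1*.

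*Cd68*, a glycoprotein of macrophage lysosomes, had 2607, 4629 and 4841 normalized counts in Cre negative and 3491, 4220 and 3560 in Cre positive ventricles (log2 fold change −0.10 ± 0.22 SE). *Aif1*, which encodes the actin-binding protein Iba1, had 81.1, 151 and 134 against 132, 138 and 156 (0.21 ± 0.23). *Laptm5*, a lysosomal membrane protein of leukocytes, had 3911, 5689 and 5551 against 4971, 5137 and 5110 (0.01 ± 0.15). The 3 Cre positive values of *Laptm5* fell inside the Cre negative range and differed from each other by little. *Lyz2* had 12180, 15768 and 17701 against 15554, 13375 and 16560 (−0.01 ± 0.16), and its near copy *Lyz1* can share reads with it. *Ms4a7*, a membrane protein of mature macrophages, varied most in this group, with 424, 1450 and 1528 against 844, 1325 and 1254 (0.01 ± 0.43). Over the group the median log2 fold change was 0.02, with 6 genes above 0 and 2 below. The lowest of the 6 ventricles was Cre negative replicate 1 in 8 of 8 lineage genes, as it was for 32.1% of all genes tested.

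For the contrast, promoters of 2 resident genes (*Cd163* with the fold change farthest from 0, and *Mrc1* with the narrowest range) and of 2 phagocytic genes (*Trem2* and *Gpnmb*) are shown. RefSeq promoters (GRCm38.p6, 250 bases before to 50 after the start, 300 bases in all) were found for 22 of the 31 genes. They were searched on both strands for GAGGAA, the letters of a core PU.1 site, and for TGANTCA, a site of AP-1 factors. Capitals mark the matches, a GAGGAA on the other strand reading TTCCTC, and all 4 genes lie on the plus strand, at chr6:124304401-124304700 for *Cd163*, chr2:14229164-14229463 for *Mrc1*, chr17:48346151-48346450 for *Trem2* and chr6:49036268-49036567 for *Gpnmb*.
Cd163: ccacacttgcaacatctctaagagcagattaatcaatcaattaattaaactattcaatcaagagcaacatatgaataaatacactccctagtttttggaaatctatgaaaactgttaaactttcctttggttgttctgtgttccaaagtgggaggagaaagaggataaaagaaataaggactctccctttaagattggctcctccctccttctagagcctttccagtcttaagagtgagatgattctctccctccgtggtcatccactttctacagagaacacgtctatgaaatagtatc
Mrc1: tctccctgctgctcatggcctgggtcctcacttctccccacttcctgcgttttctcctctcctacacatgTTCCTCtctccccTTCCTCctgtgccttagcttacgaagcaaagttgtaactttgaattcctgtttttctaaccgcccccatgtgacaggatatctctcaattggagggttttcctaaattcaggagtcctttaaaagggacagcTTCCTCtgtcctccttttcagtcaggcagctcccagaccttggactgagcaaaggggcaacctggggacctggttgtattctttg
Trem2: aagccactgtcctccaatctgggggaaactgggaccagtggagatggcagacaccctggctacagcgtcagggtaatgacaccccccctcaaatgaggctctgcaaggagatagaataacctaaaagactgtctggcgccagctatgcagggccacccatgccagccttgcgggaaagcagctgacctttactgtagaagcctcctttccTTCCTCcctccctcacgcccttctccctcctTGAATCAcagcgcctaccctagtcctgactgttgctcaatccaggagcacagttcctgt
Gpnmb: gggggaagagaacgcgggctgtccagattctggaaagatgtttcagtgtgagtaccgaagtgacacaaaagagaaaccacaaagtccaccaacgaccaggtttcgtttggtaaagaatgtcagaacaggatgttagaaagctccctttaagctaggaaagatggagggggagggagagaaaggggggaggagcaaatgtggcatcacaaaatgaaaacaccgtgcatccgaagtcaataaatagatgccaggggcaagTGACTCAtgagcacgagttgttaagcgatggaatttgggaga

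The *Mrc1* promoter held GAGGAA 3 times and no TGANTCA, *Trem2* held each of them once, *Gpnmb* held TGANTCA once, and *Cd163* held neither. Over the 22 promoters, GAGGAA was found in 12 (54.5%, against 31.3% of the 27025 promoters in the table): those of *Aif1*, *Apoe*, *Cd68*, *Ctss*, *Fcgr1*, *Fcgr3*, *Laptm5*, *Marco*, *Mrc1*, *Ms4a7*, *Plac8* and *Trem2*. TGANTCA was found in 5 (22.7%, against 8.97%), those of *Cd68*, *Folr2*, *Gpnmb*, *Ms4a7* and *Trem2*, and 3 of these genes are also in the GAGGAA list. The longer PU.1 letters GAGGAAGT, which contain GAGGAA, were found in *Ctss* alone (4.55%, against 3.69%), and CACGTG, the box bound by the lysosomal regulator TFEB, in *Ctsd* alone (4.55%, against 8.09%). A match describes the letters in this window and was not tested for binding.

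The resident genes had a median log2 fold change of −0.16, with 1 above 0 and 4 below, and none passed the test. On the TPM scale, where the median of all genes lay at 0.109 in place of 0.006, it was 0.003. The hemoglobin scavenger receptor *Cd163* (chromosome 6, 124304636 to 124330529, GRCm38.p6) had 672, 249 and 230 normalized counts in Cre negative and 244, 198 and 266 in Cre positive ventricles. A single ventricle, Cre negative replicate 1, lay far above the others, at 2.83 times their mean, and the remaining 5 ventricles spanned 198 to 266. The log2 fold change was −0.70 ± 0.40 (SE; 95% interval −1.62 to 0.23; adjusted p = 0.714 from edgeR), and it was −0.03 without that ventricle. Without Cre negative replicate 3 it was −0.96 (unadjusted p = 0.0371, adjusted p = 0.509 from edgeR). *Lyve1* (chromosome 7, 110850607 to 110862953), a hyaluronan receptor of resident macrophages and of lymphatic endothelium, had 768, 366 and 218 against 540, 292 and 370. Replicate 1 was the highest ventricle in either group, and the log2 fold change went from −0.16 ± 0.43 (SE) with all ventricles to 0.45 without Cre negative replicate 1. The summed TPM of 5 lymphatic endothelial markers was 137.9, 198.4 and 140.1 in Cre negative and 222.3, 175.7 and 225.8 in Cre positive ventricles. The part of lymphatic cells in the *Lyve1* values was not tested. Of these 5 markers *Flt4* and *Pdpn* were higher in all 3 Cre positive than in any Cre negative ventricle (7.55% of all genes were), and *Prox1* (log2 fold change −0.22), *Ccl21a* and *Reln* overlapped between the groups.

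*Timd4* (chromosome 11, 46810786 to 46844333) encodes Tim4, a receptor for phosphatidylserine on dying cells that marks long-lived resident macrophages. It had the lowest normalized counts of the set, with 31.7, 38.3 and 30.1 normalized counts against 26.9, 33.2 and 25.4 (log2 fold change −0.23 ± 0.26 SE). The groups overlapped in these counts but not in TPM, where it had 2.74, 2.95 and 2.97 in Cre negative and 2.28, 2.18 and 1.62 in Cre positive ventricles. With limma on TPM its log2 fold change was −0.37 with a pseudocount of 1 (unadjusted p = 0.0316, adjusted p = 0.590) and −0.50 with 0.1 (unadjusted p = 0.0400, adjusted p = 0.591). *Folr2* (chromosome 7, 101839988 to 101857190), the folate receptor beta, had 552, 617 and 405 against 614, 360 and 488 (−0.11 ± 0.22). The mannose receptor *Mrc1* (chromosome 2, 14229414 to 14332023), whose promoter held GAGGAA most often of the 4 shown, was the steadiest resident gene, with 1292, 1108 and 1412 against 1459, 1132 and 1491. The highest value of *Mrc1* was 1.34 times the lowest, and its log2 fold change was 0.10 ± 0.14 (SE; 95% interval −0.22 to 0.42). In *Timd4*, *Folr2* and *Mrc1*, Cre negative replicate 1 lay within the range of the other 5 ventricles.

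The recruited and phagocytic genes had a median log2 fold change of −0.16 (0.08 on the TPM scale), with 1 above 0 and 3 below, and none passed the test. *Plac8* (chromosome 5, 100551589 to 100572253), a gene of blood monocytes, had 244, 500 and 168 normalized counts in Cre negative and 387, 447 and 406 in Cre positive ventricles. The Cre positive ventricles were tightly grouped inside the Cre negative range, and the log2 fold change, the highest of the 31, was 0.44 ± 0.35 (SE; 95% interval −0.37 to 1.25; adjusted p = 0.731 from edgeR). Single Cre negative ventricles set its size, as it was 1.01 without replicate 2 (unadjusted p = 0.00102, adjusted p = 0.654 from edgeR) and 0.14 without replicate 3. *Chil3* (chromosome 3, 106147554 to 106167564), the chitinase-like protein Ym1, had 809, 404 and 238 against 606, 463 and 204, with a log2 fold change of −0.18 ± 0.49 (SE) that became 0.40 without Cre negative replicate 1. The near copy *Chil4* was at 0 in 5 of 6 libraries. Like 8 of 9 tested neutrophil markers, *Chil3* was highest in Cre negative replicate 1. The part of neutrophils in its values was not tested.

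The 2 genes of phagocytic, lipid-loaded cells had another profile over the ventricles. *Trem2* (chromosome 17, 48346401 to 48352276), a receptor for lipids and cell debris, had 674, 1296 and 1446 normalized counts in Cre negative and 771, 1091 and 1030 in Cre positive ventricles (log2 fold change −0.24 ± 0.27 SE). *Gpnmb* (chromosome 6, 49036518 to 49058182), a glycoprotein of phagosomes and lysosomes, had 1516, 6624 and 7666 against 2673, 6542 and 5171 (−0.14 ± 0.56). In both genes replicate 1 of each group was the lowest of its group, and *Gpnmb* spanned 5.05-fold between ventricles, the widest range of the 31. Without Cre negative replicate 1 the log2 fold changes were −0.51 for *Trem2* (unadjusted p = 0.00609) and −0.58 for *Gpnmb* (unadjusted p = 0.0848), with adjusted p-values of 0.729 and 0.787 from edgeR.

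**Figure D3:**
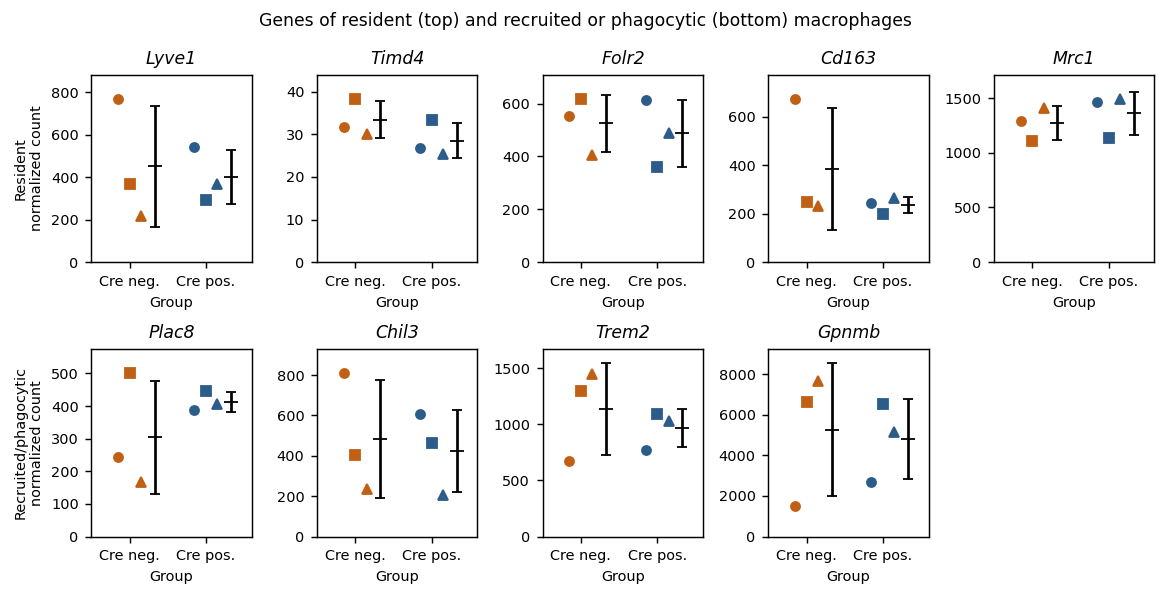
Normalized counts of the 5 resident genes (top) and the 4 recruited or phagocytic genes (bottom) in each ventricle, with the group mean and SD (n = 3) as bars; marker shape gives the replicate. The groups overlap in all 9 panels, and the Cre negative circle is far from the other points for *Cd163* (672 against 198 to 266) and the lowest point for *Gpnmb* (1516 against 2673 to 7666).

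The resident and recruited genes were set against each other within a ventricle by the mean log2 CPM of each set, centred on the mean of the 6 ventricles. Cre negative replicate 1 had the highest resident score (0.48) and the lowest recruited score (−0.40), a difference of 0.88. In Cre negative replicates 2 and 3 the difference was −0.36 and −0.16, and in Cre positive replicates 1 to 3 it was 0.19, −0.62 and 0.06. The mean difference was 0.12 ± 0.66 (SD, n = 3) in Cre negative and −0.12 ± 0.43 (SD, n = 3) in Cre positive ventricles. These means differ by less than either SD. The Cre negative mean was above 0 through replicate 1, as replicates 2 and 3 were below 0 and inside the Cre positive range. The resident minus the recruited median log2 fold change was −0.005 with all ventricles and 0.08 without Cre negative replicate 1. Cre positive replicate 2 was at the other end from Cre negative replicate 1, with a resident score of −0.30 and a recruited score of 0.32. The recruited genes did not vary together, as *Chil3* was highest in Cre negative replicate 1, where *Gpnmb* and *Trem2* were lowest. Nor did the resident genes. In that ventricle *Cd163* and *Lyve1* were at 2.83 and 2.15 times the mean of the other 5. *Timd4*, *Folr2* and *Mrc1* were at 1.03, 1.11 and 0.978 times it.

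**Figure D4:**
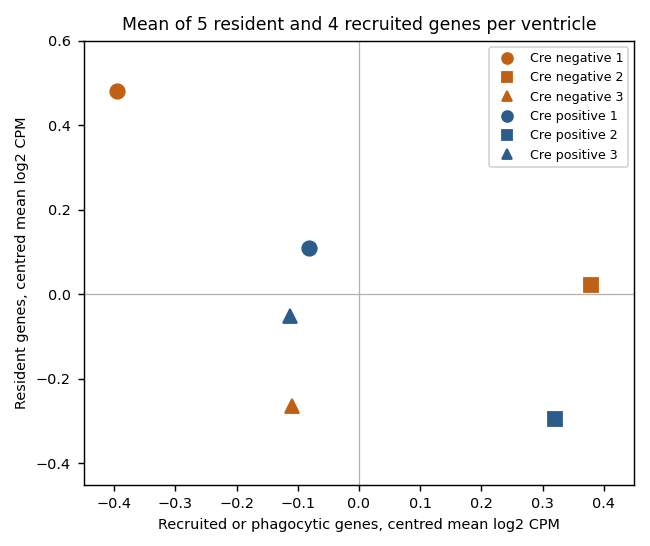
Mean centred log2 CPM of the 5 resident genes (vertical axis) against the 4 recruited or phagocytic genes (horizontal axis), a point per ventricle. The Cre negative circle (replicate 1) lies at the upper left (−0.40, 0.48) and Cre positive replicate 2 at the lower right (0.32, −0.30), with the groups interspersed.

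Single pairs of a recruited and a resident gene were compared on the TPM scale. There were 2.56, 30.1 and 38.3 *Gpnmb* TPM for each *Cd163* TPM in Cre negative replicates 1 to 3, and 12.7, 37.3 and 22.9 in Cre positive replicates 1 to 3. For each *Lyve1* TPM there were 2.18, 8.83 and 16.5 *Trem2* TPM without Cre and 3.57, 9.34 and 6.92 with Cre. Both ratios were lowest in Cre negative replicate 1 and next lowest in Cre positive replicate 1, and the groups overlapped in both. These pairs were chosen after their values were seen, and *Chil3* for each *Cd163* TPM had another order, with 3.49, 4.70 and 3.04 without Cre and 7.37, 6.78 and 2.32 with Cre. Of all 20 pairs 12 were lowest in Cre negative replicate 1. Among them were 10 of the 10 with *Trem2* or *Gpnmb*, which were lowest there in TPM themselves. Of all single genes 51.4% were lowest there in TPM, and no share was taken for pairs of other genes. In 1 pair, *Plac8* for each *Timd4* TPM, all Cre positive ventricles were higher than any Cre negative one. The groups did not overlap in the TPM of *Timd4* alone either.

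*Nos2*, the inducible nitric oxide synthase of inflammatory macrophages, had 179, 246 and 325 normalized counts in Cre negative and 356, 259 and 296 in Cre positive ventricles. The ranges overlapped, and the log2 fold change of 0.28 ± 0.22 (SE; adjusted p = 0.733 from edgeR) was 0.08 without Cre negative replicate 1, the lowest of the 6, and 0.51 without Cre negative replicate 3 (unadjusted p = 0.0386, adjusted p = 0.509 from edgeR).

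Activating Fc receptors bind antibody-coated particles and signal through the adaptor *Fcer1g*. *Tyrobp*, listed with them, is the adaptor of *Trem2*. *Fcgr1*, the high-affinity receptor for IgG, had 321, 977 and 790 normalized counts against 666, 881 and 656 (log2 fold change 0.07 ± 0.35 SE), and *Fcer1g* had 1875, 3354 and 3162 against 2357, 2711 and 2809 (−0.09 ± 0.21). *Tyrobp* lay between 1051 and 2084 (−0.01 ± 0.23). *Fcgr3* lay between 1402 and 1798 (−0.05 ± 0.11). Its estimated counts and those of the similar gene *Fcgr2b* were not whole in any ventricle, so that shared reads may be divided between them. Those of *Fcgr4* were whole in all ventricles. The lowest ventricle was Cre negative replicate 1 in 4 of 4, and in none of the 4 did the groups separate.

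Among pattern and scavenger receptors, *Marco*, which binds bacteria and modified lipoproteins, had 371, 174 and 245 normalized counts in Cre negative and 157, 209 and 182 in Cre positive ventricles. The highest value was that of Cre negative replicate 1, and the log2 fold change was −0.52 ± 0.27 (SE; 95% interval −1.14 to 0.10), −0.20 without it, and −0.75 without Cre negative replicate 2 (unadjusted p = 0.0109, adjusted p = 0.654 from edgeR). The lipopolysaccharide co-receptor *Cd14* had 451, 523 and 492 against 623, 436 and 594 (0.17 ± 0.14), or 0.31 without Cre positive replicate 2 (unadjusted p = 0.0246, adjusted p = 0.958 from edgeR). The scavenger receptor *Msr1* was set apart by a single Cre positive ventricle, replicate 2, with 1217 against 327 to 789 in the other 5 (0.12 ± 0.49, and −0.59 without that ventricle). *Mertk*, a kinase receptor that takes up apoptotic cells, lay between 302 and 427 (−0.14 ± 0.14).

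Of the lysosomal and lipid genes, *Ctss*, a cathepsin that processes antigens, had 2612, 5702 and 5513 normalized counts against 3520, 5298 and 5133 (log2 fold change 0.01 ± 0.30 SE). *Apoe* had 26792, 28895 and 30130 against 24192, 19626 and 30384 (−0.21 ± 0.17), with Cre positive replicate 2 the lowest of the 6. *Ctsb* lay between 31808 and 47046 (−0.05 ± 0.18), *Ctsd* between 33985 and 42377 (−0.11 ± 0.13), and *Lgals3*, the galectin of phagocytes, between 2645 and 6685 (−0.12 ± 0.32). *Ctsd* was among the least variable of the 31, its highest ventricle being 1.25 times its lowest, and its groups still overlapped. In 4 of these 5 genes Cre negative replicate 1 was lowest, *Apoe* being the exception.

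Across all role groups, Cre negative replicate 1 had the lowest value of 20 of the 31 genes (32.1% of all genes tested were lowest there) and the highest of 4, *Lyve1*, *Cd163*, *Chil3* and *Marco* (30.8% of all genes). The SD was larger in the Cre negative than in the Cre positive group for 26 of the 31. The share over all genes was not taken, so that this count cannot be called particular to the members. The summed TPM of the 31 genes was 10410, 15680 and 16470 in Cre negative and 13010, 14650 and 15500 in Cre positive ventricles. Cre negative replicate 3 was highest and Cre negative replicate 1 lowest, with the Cre positive ventricles between them. In *Ms4a7*, *Gpnmb*, *Fcgr1* and *Msr1*, Cre negative replicate 1 was at 0.332, 0.264, 0.404 and 0.454 times the mean of the other 5. In *Cd163*, *Lyve1* and *Chil3* it was at 2.83, 2.15 and 2.11 times that mean.

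**Figure D5:**
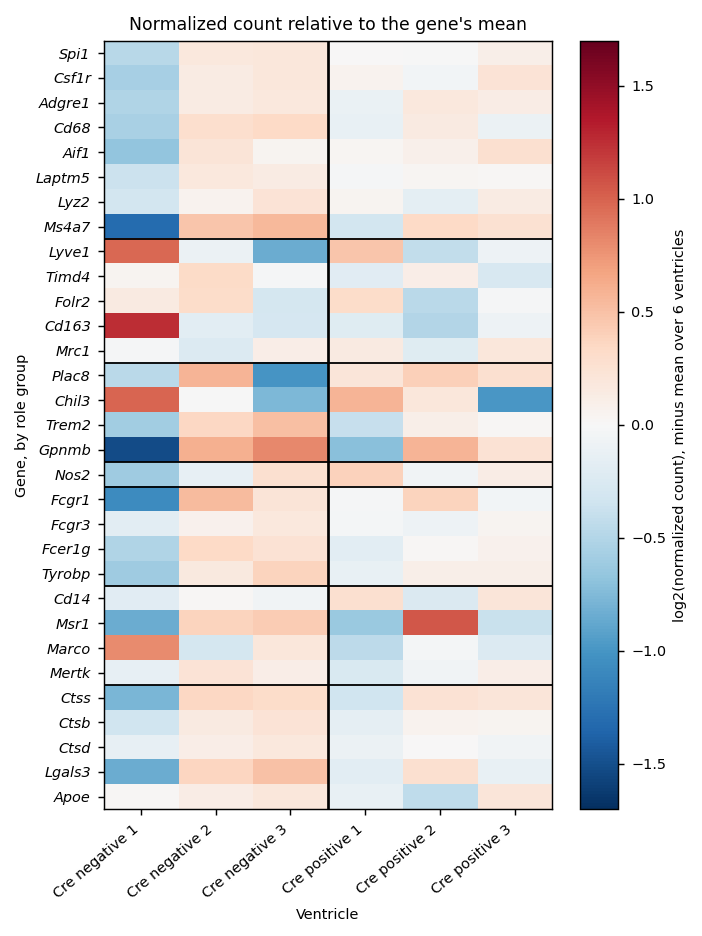
Each gene's log2 normalized count minus its mean over the 6 ventricles (color), with genes in rows by role group and ventricles in columns. Cre negative replicate 1, the leftmost column, is lowest (blue) for 20 of 31 genes and highest (red) for *Lyve1*, *Cd163*, *Chil3* and *Marco*.

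Markers of other cells moved with this library. All 6 panleukocyte markers, genes of every leukocyte class, were lowest in it. Of 9 tested neutrophil markers 8 were highest in it, and of 11 listed, *Ly6g* was at 0 in 4 of the other 5 ventricles and had 17.6 normalized counts in this one. Of 8 cardiomyocyte markers 7 were highest in it, and over all ventricles the median log2 fold change of this list was −0.31, with 8 of 8 below 0 and 5 of 8 lower in all Cre positive than in any Cre negative ventricle (6.85% of all genes were). Without the library that median was −0.13, with 7 of 8 below 0. The part of these markers in the macrophage values was not tested.

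The balance of signs depended on which ventricle was left out. Without Cre positive replicate 1, 2 or 3, the log2 fold changes of 16, 11 and 10 genes were above 0 and of 15, 20 and 21 below. Without Cre negative replicate 2, 21 genes were above 0 and 10 below (median 0.03). Without Cre negative replicate 3 the counts were again 21 and 10 (median 0.11). Without Cre negative replicate 1, 25 were below 0 and 6 above, with a median of −0.18 beside 9.67e-05 for all genes, and 11 had changed sign, 9 of them from above to below 0. In that fit 6 of 6 panleukocyte markers were below 0 (median −0.06), where with all ventricles 6 of 6 were above 0 (median 0.14). Of the cardiomyocyte markers 7 of 8 were below 0 (median −0.13). Above 0 were 8 of 9 neutrophil markers (median 0.66, from −0.37 with all ventricles) and 5 of 5 tested mast cell markers. Of B cell markers 5 of 5 were above 0 in both fits. Dendritic cell markers above 0 were 9 of 9 with all ventricles and 5 of 9 in that fit. The part of these cells in the counts was not tested. No member had an adjusted p under 0.05 with edgeR (0.0143% of 13995 genes tested did), and the smallest was 0.729. At an unadjusted p under 0.05, 8 members were below 0 (3.01% of all genes were) and 0 above (3.58%). The 8 were *Trem2* (−0.51), *Lgals3* (−0.44), *Ms4a7* (−0.39), *Cd68* (−0.34), *Fcer1g* (−0.32), *Tyrobp* (−0.25), *Ctsb* (−0.21) and *Ctsd* (−0.21). They come from the lineage, phagocytic, Fc receptor and adaptor, and lysosomal groups, and no resident gene is among them. Of the 8 lineage genes 8 were then below 0, with a median of −0.15, and the lysosomal group had a median of −0.26 with 5 of 5 below 0. The resident median was −0.03 and the recruited median −0.10, the latter with *Plac8* and *Chil3* above 0 and *Trem2* and *Gpnmb* below. These 5 ventricles leave 2 in the Cre negative group, and none of these values passed the adjusted threshold.

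Other macrophage genes, 69 listed by function, were checked in the fit of all 6 ventricles. Of the 68 tested, 41 had a log2 fold change above 0 and 27 below, with a median of 0.04. None had an adjusted p under 0.05 with edgeR, and 1 had an unadjusted p under 0.05, the integrin *Itgav* (0.42), which fibroblasts also express. Fibronectin (*Fn1*), *Itgav* and cathepsin K (*Ctsk*) were higher, and *Lamp1* and *Cst3* lower, in all 3 Cre positive than in any Cre negative ventricle. That makes 3 and 2 of 68, below the background of 7.55% and 6.85% given above. The monocyte chemokine receptor *Ccr2* had 227, 561 and 570 normalized counts in Cre negative and 472, 712 and 535 in Cre positive ventricles (0.34, unadjusted p = 0.338), and the complement gene *C1qa* 4909, 5981 and 6131 against 5311, 4128 and 5484 (−0.19, unadjusted p = 0.226). Without Cre negative replicate 1 these values were 0.01 for *Ccr2* (unadjusted p = 0.926) and −0.29 for *C1qa* (unadjusted p = 0.0438, adjusted p = 0.742 from edgeR). In 42 of the 68, Cre negative replicate 1 was the lowest ventricle, and it was the highest in 12. Without it, 20 were above 0 and 48 below, with a median of −0.05. Among the 12 highest in Cre negative replicate 1 were *Lpl* and *Cd36*. Of 8 cardiomyocyte markers 7 were highest there as well, and the part of other cells in these counts was not tested.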

How the data were processed

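Left ventricles of 3 Cre positive and 3 Cre negative mice were sequenced, and groups were taken from the sample titles. The authors deposited estimated read counts, TPM values and FPKM values for 17556 genes; the submitters' processing notes name Bowtie2 2.2.5, RSEM 1.2.12 and the build GRCm38.p6. Of the estimated counts, deposited without normalization, 11.5% are not whole, so that reads shared by similar genes may be divided between them. TPM as deposited by the authors is scaled to transcript length and a fixed total, and was used to compare genes and in the alternatives with limma. FPKM as deposited was not used, nor was the authors' table of their own comparison, whose columns hold fold changes with their p-values and q-values.

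Estimated counts were rounded and tested in edgeR 4.0.16 (R 4.3.3; filterByExpr with a minimum count of 10 and total of 15, TMM scaling, quasi-likelihood test without covariates, Benjamini-Hochberg threshold 0.05), with p-values adjusted over all 13817 genes kept. Normalized counts are scaled to the mean library of 14264187. Standard errors were derived from the F statistic. Scores used log2 CPM with a prior count of 2. The edgeR step was tested on simulated data. Alternatives were DESeq2 size factors, upper quartile scaling, no filter, DESeq2 1.42.0, limma 3.58.1 on log2(TPM + 1) and log2(TPM + 0.1), a replicate block, and each ventricle left out in turn. Positions and promoters are from RefSeq on GRCm38.p6. Tables were made in Python 3.11.15 with pandas 2.3.3 and figures with matplotlib 3.10.9.

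The members and gene lists were chosen with earlier results of these data known. Per ventricle values are given for the 9 contrast and 8 lineage genes and for the highest and lowest log2 fold change of each role group, with the remaining members by their range. In edgeR's test and normalized counts, no unadjusted p under 0.05 or separation of the groups added any. One further gene of the contrast is not reported here. Genes outside the set are named from fixed lists where a count turns on them. *Ccr2*, *C1qa*, *Ly6g* and *Msr1* were chosen for fuller description after their values were seen. Library totals limit precision through counting error only.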

Additional observations from a re-analysis of the deposited data

How the results depend on the processing

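No member had an adjusted p under 0.05 with all ventricles or in any of the 13 alternatives, where the smallest was 0.509. Directions were less stable. Of 403 member values under an alternative 329 kept their sign, and 9 members kept it in all 13 (*Timd4*, *Cd163*, *Mrc1*, *Plac8*, *Trem2*, *Nos2*, *Cd14*, *Marco*, *Apoe*). The TPM scale moved the median of all genes from 0.006 to 0.109 (pseudocount 1) and 0.125 (pseudocount 0.1). On it 12 members reversed, with log2 fold changes of 0.0687 and 0.0691 for *Cd68*, 0.128 with both for *Lyz2*, 0.0836 and 0.0929 for *Lyve1*, 0.00293 and 0.0029 for *Folr2*, 0.191 and 0.195 for *Gpnmb*, 0.073 and 0.0735 for *Fcgr3*, 0.0763 and 0.0766 for *Fcer1g*, 0.174 and 0.175 for *Tyrobp*, 0.0194 and 0.0216 for *Mertk*, 0.064 with both for *Ctsb*, 0.0117 with both for *Ctsd*, and 0.0954 and 0.0959 for *Lgals3*. The recruited median went from −0.16 to 0.08 with both. DESeq2 size factors reversed *Laptm5* (−0.00237) and *Ms4a7* (−0.00131), upper quartile scaling *Lyz2* (0.00203) and the DESeq2 Wald test *Laptm5* (−0.00271). With the replicate block, *Lyz2* (0.00592), *Gpnmb* (0.0692) and *Tyrobp* (0.0428) reversed, 0 members and 0 genes were called, and 1217 genes had an unadjusted p under 0.05 against 806 without it. Same-numbered ventricles correlated at 0.354, 0.0726 and −0.0318 in their deviations from the group means (other pairs −0.368 to 0.354), so that the numbers were not taken to pair the samples.

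Genes called higher over the whole table were 1, but 4 with the DESeq2 Wald test (with 1 lower) and 2 with limma on either TPM scale; the cause was not tested. Leaving out each ventricle in turn gave 0 to 1 higher (0 without Cre positive replicate 1 or 3 or Cre negative replicate 3) and 0 to 1 lower (1, *Postn*, without Cre negative replicate 1). The recruited median then ran from −0.30 to 0.06, above 0 without Cre positive replicate 1 or Cre negative replicate 3, and the resident median from −0.31 to 0.02, above 0 only without Cre positive replicate 2. Log2 fold changes of the members that reversed there were −0.16 to 0.133 for *Spi1*, −0.0821 to 0.255 for *Csf1r*, −0.0863 to 0.221 for *Adgre1*, −0.338 to 0.0532 for *Cd68*, −0.00927 to 0.394 for *Aif1*, −0.152 to 0.1 for *Laptm5*, −0.146 to 0.118 for *Lyz2*, −0.388 to 0.279 for *Ms4a7*, −0.496 to 0.451 for *Lyve1*, −0.308 to 0.0702 for *Folr2*, −0.528 to 0.399 for *Chil3*, −0.58 to 0.234 for *Gpnmb*, −0.27 to 0.398 for *Fcgr1*, −0.149 to 0.0299 for *Fcgr3*, −0.316 to 0.059 for *Fcer1g*, −0.251 to 0.198 for *Tyrobp*, −0.593 to 0.414 for *Msr1*, −0.275 to 0.194 for *Ctss*, −0.209 to 0.0571 for *Ctsb*, −0.439 to 0.111 for *Lgals3*. Those that kept their sign ranged from −0.353 to −0.116 for *Timd4*, −0.959 to −0.0273 for *Cd163*, 0.009 to 0.214 for *Mrc1*, 0.145 to 1.01 for *Plac8*, −0.512 to −0.0335 for *Trem2*, 0.0834 to 0.512 for *Nos2*, 0.0726 to 0.314 for *Cd14*, −0.751 to −0.201 for *Marco*, −0.243 to −0.0506 for *Mertk*, −0.205 to −0.047 for *Ctsd*, −0.386 to −0.0687 for *Apoe*. Cre negative replicate 1 reversed 11 members, more than any other ventricle. With 3 ventricles a group, standard errors up to 0.56 limit what could be seen.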
